A study of Mus musculus with 25 samples.

Results

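miR-132 and miR-212 are 2 microRNAs (miRNAs) made from neighbouring hairpins of 1 short transcript, and each hairpin yields a mature strand from its 5′ arm (5p) and its 3′ arm (3p). The 4 mature mouse strands, mmu-miR-132-3p, mmu-miR-132-5p, mmu-miR-212-3p and mmu-miR-212-5p (written without the species prefix from here on), were taken by name from the 1618 miRNA entries of each deposited table. They were followed in the hypothalamus of wild-type C57BL/6J mice at an age of 3 months. The mothers ate regular chow (RD) or the high-sucrose, 52% fat diet TD.04059.PWD, called hypercaloric (HCD). They began it 1 month ahead of mating and stayed on it until the end of lactation, and the young were weaned onto RD or HCD. The first part of a group's name is the diet of the mother and the rest that of the young, so RD-RD animals never received HCD, HCD-RD animals met it through the dam only, RD-HCD animals through their own food only, and HCD-HCD animals through both. Of 25 libraries 13 are from males, with 4 in RD-RD and 3 in every other group, and 12 from females, with 3 per group. The labels do not say whether each library is a separate animal or how libraries fall into litters, and a p-value then measures only how these libraries spread, which may be technical.

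A miRNA binds messenger RNAs mainly through its seed, bases 2 to 8 from the 5′ end, and lowers their translation and stability. Transcription of the miR-212 and miR-132 hairpins is switched on in neurons by synaptic activity and neurotrophins through the transcription factor CREB. In rodent neurons miR-132-3p represses the GTPase-activating protein p250GAP (Arhgap32) and promotes growth of dendrites. In the suprachiasmatic nucleus, the clock of the hypothalamus, light induces miR-132 in the mouse.

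The sequences show which strands could act on the same targets and which could be confused in counting, and capitals mark the seed. They were taken from RefSeq on GRCm38.p6, with all 4 names matched.
miR-132-3p: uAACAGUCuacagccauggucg
miR-212-3p: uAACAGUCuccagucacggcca
miR-132-5p: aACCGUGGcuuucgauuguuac
miR-212-5p: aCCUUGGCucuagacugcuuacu
The 3p strands carry the same seed, AACAGUC, and no other mature miRNA among the 1679 in the RefSeq table does. They are identical at 17 of 22 positions and over the first 9 bases. The differences, counted from 1 at the 5′ end with the miR-132-3p base first, are A10C, C14U, U17C, U20C and G22A. The 5p strands have seeds of their own, shared with no other mature miRNA of the table, and are identical at 9 of the first 22 positions. Reads from the 5′ end of the 3p strands can be told apart by sequence once they reach position 10. The sources used here do not say whether shorter reads were counted.

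The hairpins show how each pair of strands is cut from 1 precursor, and capitals mark the mature strands.
Mir212: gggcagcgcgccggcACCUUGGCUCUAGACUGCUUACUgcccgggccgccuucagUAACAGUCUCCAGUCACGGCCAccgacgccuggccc
Mir132: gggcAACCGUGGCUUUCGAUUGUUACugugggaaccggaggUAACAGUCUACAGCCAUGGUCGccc
On GRCm38, the mm10 build, Mir212 lies on the plus strand at chr11:75173388-75173478 and Mir132 at chr11:75173682-75173747, with 203 bases between them. GENCODE M21 places both in intron 1 of the noncoding host transcript 1700016P03Rik (chr11:75172560-75177633, plus strand), and Mir212 begins 828 bases after the start of the host. The gene Hic1 lies upstream on the minus strand and Ovca2 overlaps the end of the host on the minus strand.

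The values are folds, the ratio of normalised expression in a diet group to RD-RD of the same sex, and p-values from DESeq2, both from the authors' deposited tables. A p is given here after Benjamini-Hochberg adjustment over all miRNAs with a p in the comparison, and a miRNA was called at an adjusted p under 0.05. Values of single libraries were not used, and library depth is unknown. A remark in the tables marks miRNAs with a mean below 10 molecules in a group, and none of the 24 values of the 4 strands carries it. Levels of the strands relative to each other are not in the tables. The 4 neuronal miRNAs checked for the tissue (miR-124-3p, miR-9-5p, miR-128-3p and miR-218-5p) carry no low-count remark in any comparison, but neither do at least 4 of 5 muscle and liver miRNAs, so the remark does not separate tissues. In the library names, the order numbers of the 15 libraries of HCD-HCD and HCD-RD of both sexes and RD-HCD males are all different, as are those of the 10 libraries of RD-RD of both sexes and RD-HCD females, while 8 numbers occur in both blocks. What a numbered set stands for is not given, and it cannot be told apart from diet in any comparison with RD-RD except that of RD-HCD females.

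miR-132-3p was higher in males raised on RD by dams on HCD, the single call among the 24 values. It stood at 1.72-fold of RD-RD in HCD-RD males by the authors' deposited table, a log2 fold of 0.78 with an error implied by the p-value of 0.30 (95% interval 1.15- to 2.57-fold, DESeq2 adjusted p = 0.047, 3 against 4 libraries). Its partner strand miR-132-5p was at 0.93-fold, miR-212-3p at 1.16-fold and miR-212-5p at 1.21-fold by the authors' deposited table, with DESeq2 adjusted p-values of 0.83, 0.61 and 0.45. So 1 of 4 strands was called, against 18.4% of the 1426 miRNAs tested in HCD-RD males with 6.38% called higher and 12% lower. With adjustment over miRNAs with no low-count remark only, 193 of them were called, and again 1 of the 4 strands. Among the 775 miRNAs with no low-count remark, the fold of miR-132-3p ranked 81 from the highest, and that of miR-132-5p 466. The call rests on how the folds are centred. The median log2 fold of miRNAs with no remark was 0.08 in HCD-RD males, and with that median set to 0 the log2 fold of miR-132-3p was 0.70, with adjusted p = 0.072. With the median of all miRNAs with a p set to 0 it was 1.03, with adjusted p = 0.0050. Holm adjustment also ended the call.

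In the same HCD-RD males, markers of other cells also differed from RD-RD, and their part in the result was not tested. Both miR-142a strands of 4 leukocyte and microglial miRNAs fell, miR-204-5p rose and miR-34b-5p and miR-34c-5p fell among 4 choroid plexus and ependymal miRNAs, and miR-486a-5p rose and miR-144-3p fell among 3 erythrocyte miRNAs. Not called were miR-150-5p at 1.15-fold, miR-223-3p at 1.07-fold, miR-449a-5p at 0.74-fold and miR-451a at 0.8-fold by the authors' deposited table. Over all miRNAs 6.38% were called higher and 12% lower. None of the 4 neuronal miRNAs was called, with folds from 0.81 to 1.4 by the authors' deposited table. Of 6 pituitary and epithelial miRNAs 2 had a p and neither was called, miR-200b-3p at 0.5-fold and miR-375-3p at 1.49-fold by the authors' deposited table. The 4 with no p, miR-141-3p, miR-200a-3p, miR-200c-3p and miR-429-3p, are listed between 0.25- and 0.45-fold by the authors' deposited table. These 4 are low in the other male groups too, again with no p. The authors' deposited table lists them between 0.32- and 0.62-fold in HCD-HCD males and between 0.35- and 0.62-fold in RD-HCD males. Of 5 muscle and liver miRNAs miR-208a-3p, with a low-count remark, fell. In bulk tissue, fewer cells of a type and less RNA per cell cannot be told apart.

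In HCD-HCD males the 2 strands with the higher folds were miR-132-3p and miR-212-5p. The authors' deposited table gave miR-132-3p at 1.41-fold of RD-RD (95% interval 0.94- to 2.11-fold) and miR-212-5p at 1.33-fold (0.95- to 1.85-fold), with DESeq2 adjusted p-values of 0.25 and 0.24. The other strand of each hairpin lay near the RD-RD level, with miR-132-5p at 1.01-fold and miR-212-3p at 0.98-fold by the authors' deposited table. None of the 4 was called, against 19.3% of all miRNAs tested in HCD-HCD males, 5.61% higher and 13.7% lower. With folds centred on all miRNAs with a p, 2 of the 4 were called, miR-132-3p at a log2 fold of 0.76 (adjusted p = 0.04996) and miR-212-5p at 0.68 (0.032). Of the same markers, both miR-142a strands, miR-144-3p, miR-34b-5p and miR-34c-5p fell and miR-204-5p rose in HCD-HCD males, and their part was not tested. The rest of the leukocyte, choroid plexus and erythrocyte lists was not called. By the authors' deposited table miR-150-5p stood at 0.9-fold, miR-223-3p at 1.32-fold, miR-449a-5p at 0.8-fold, miR-451a at 1.08-fold and miR-486a-5p at 1.44-fold. Intervals of all 4 strands include 1, and those of miR-132-5p, miR-212-3p and miR-212-5p lie within 0.5- to 2-fold.

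In RD-HCD males all 4 strands were listed below 1 and none was called. By the authors' deposited table miR-212-5p stood at 0.76-fold of RD-RD (95% interval 0.55- to 1.06-fold), miR-132-5p at 0.77-fold (0.52- to 1.14-fold), miR-132-3p at 0.85-fold (0.56- to 1.29-fold) and miR-212-3p at 0.94-fold (0.66- to 1.33-fold). The DESeq2 adjusted p-values ran from 0.55 to 0.97. Over all miRNAs 1.47% were called, and among the 870 with no remark the folds of miR-212-5p and miR-132-5p ranked 754 and 741 from the highest.

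**Figure D1:**
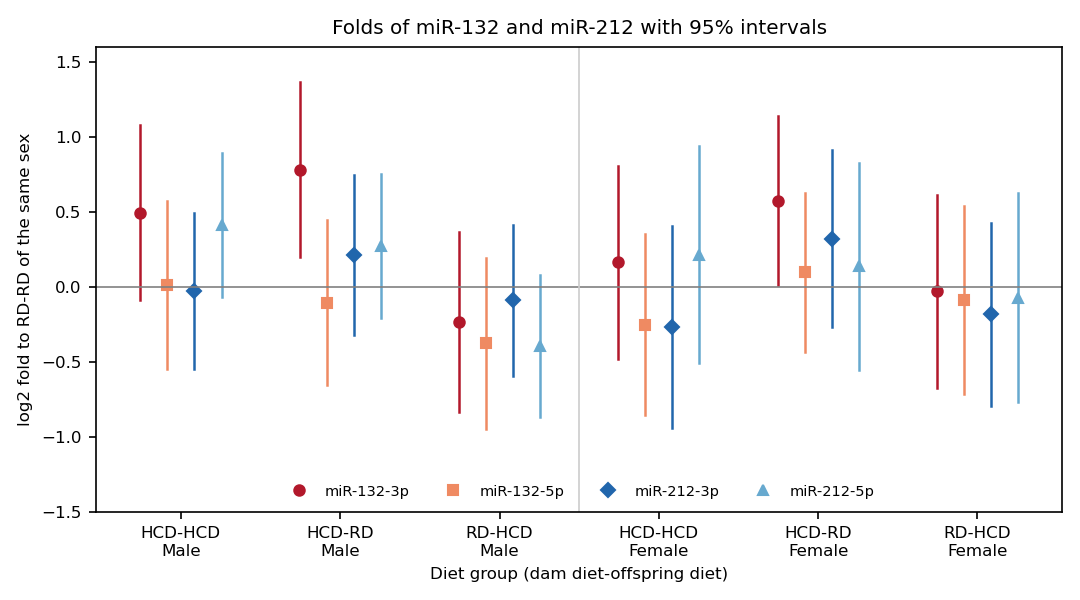
Log2 fold of each of the 4 strands to RD-RD of the same sex (vertical axis) in the 6 diet groups (horizontal axis); points are deposited folds and bars are 95% intervals from the implied standard error. The interval of miR-132-3p lies above 0 in HCD-RD males (1.15- to 2.57-fold) and just above 0 in HCD-RD females (from 1.01-fold), and the other 22 intervals include 0.

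In females no strand was called in any diet group. The highest was again miR-132-3p in HCD-RD, the group that met HCD through the dam only, at 1.49-fold of RD-RD by the authors' deposited table (log2 fold 0.58 with an implied error of 0.29, lower 95% bound 1.01-fold). Its unadjusted DESeq2 p was 0.046 and its adjusted p 0.40, in a comparison where 1.69% of 1298 miRNAs were called, 1% higher and 0.693% lower. miR-212-3p followed at 1.25-fold, miR-212-5p at 1.1-fold and miR-132-5p at 1.07-fold by the authors' deposited table. The fold of miR-132-3p ranked 54 from the highest among 770 miRNAs with no remark in HCD-RD females.

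HCD-HCD females had miR-212-5p at 1.16-fold and miR-132-3p at 1.12-fold of RD-RD by the authors' deposited table, with miR-132-5p at 0.84-fold and miR-212-3p at 0.83-fold. The strands thus stood on both sides of RD-RD, and their 95% intervals run from 0.52- to 1.91-fold between the lowest and highest bound. In this comparison 0.0668% of 1497 miRNAs were called. In RD-HCD females the 4 strands stood between 0.88-fold (miR-212-3p) and 0.98-fold (miR-132-3p) by the authors' deposited table. No miRNA at all was called there (0%), with DESeq2 p-values, and 15 of 1497 had an unadjusted p under 0.05. All 4 intervals in RD-HCD females lie within 0.5- to 2-fold, as do 21 of the 24 over all comparisons.

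**Figure D2:**
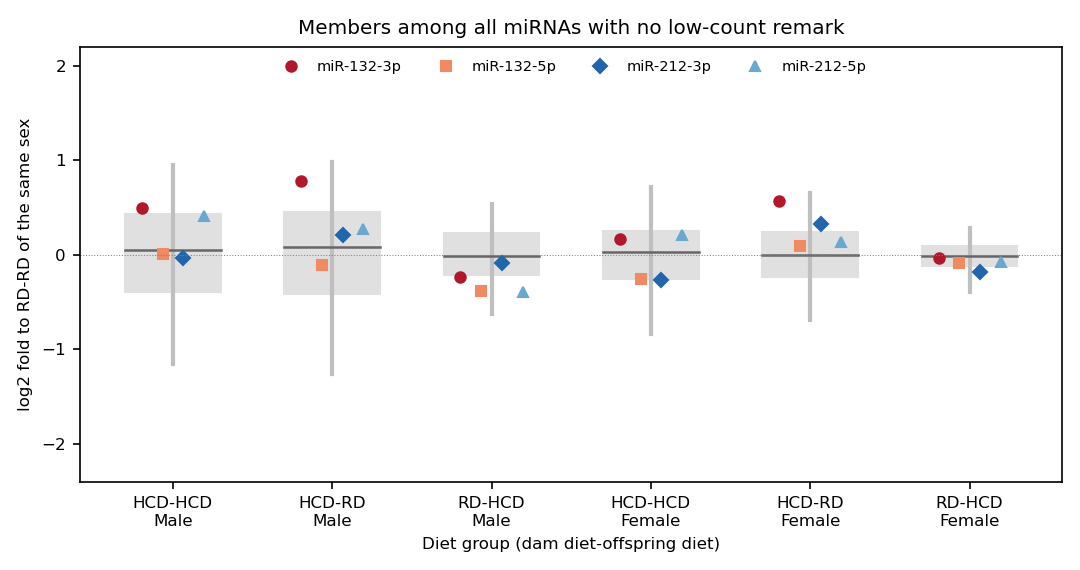
Log2 fold to RD-RD of the same sex (vertical axis) of the 4 strands (symbols) over the folds of all miRNAs with no low-count remark, by diet group (horizontal axis); the box spans the quartiles of the miRNAs, the dark line is their median and the grey bar runs from the 5th to the 95th percentile. miR-132-3p lies above the box in HCD-HCD and HCD-RD males and in HCD-RD females, as does miR-212-3p in HCD-RD females. Below the box lie miR-132-3p, miR-132-5p and miR-212-5p in RD-HCD males, and miR-212-3p in HCD-HCD and RD-HCD females. Every strand lies inside the grey bar of its group.

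The order of the 4 strands differed between groups, and the 95% intervals of neighbours in it overlap in every group. miR-132-3p had the highest fold in HCD-HCD and HCD-RD males and in HCD-RD and RD-HCD females, with miR-212-5p first in HCD-HCD females and miR-212-3p first in RD-HCD males. Errors of single folds were 0.24 to 0.31 on the log2 scale in males and 0.27 to 0.37 in females. The log2 fold of miR-132-3p exceeded that of miR-132-5p, the other strand of its hairpin, by 0.48 in HCD-HCD males, 0.89 in HCD-RD males and 0.14 in RD-HCD males. In females the same difference was 0.42 for HCD-HCD, 0.48 for HCD-RD and 0.06 for RD-HCD. For miR-212 the difference of 3p over 5p ran from -0.48 in HCD-HCD females to 0.31 in RD-HCD males. Comparisons of one sex share RD-RD libraries and strands share all libraries, so differences between strands were not tested.

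The diet groups of males were also set against each other, since their folds come from 1 table and the same RD-RD libraries. HCD-HCD and RD-HCD males differ in the diet of the dam only, and HCD-HCD and HCD-RD males in that of the young only. HCD-RD and RD-HCD males differ in both, so their ratio cannot say which diet separates them. HCD-RD males had 2.02 times the miR-132-3p of RD-HCD males (log2 ratio 1.02, standard error 0.32, 95% interval 1.30 to 3.14, adjusted p = 0.043 by a normal test on errors implied by DESeq2). HCD-HCD males had 1.75 times the miR-212-5p of RD-HCD males (log2 ratio 0.81, standard error 0.26, 95% interval 1.23 to 2.49, adjusted p = 0.047). In each of these contrasts 4.21% of 1425 miRNAs were called, and 1 of the 4 strands. Called higher were 1.33% for HCD-HCD over RD-HCD and 1.26% for HCD-RD over RD-HCD, and called lower 2.88% and 2.95%. Both calls ended with folds centred on miRNAs with no remark, at adjusted p = 0.070 for miR-132-3p and 0.080 for miR-212-5p, and the second also with the larger of the implied variances, at 0.0502.

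In each contrast the other of these strands was higher as well, without a call. HCD-HCD over RD-HCD males gave 1.66 for miR-132-3p (95% interval 1.07 to 2.57, adjusted p = 0.22), and HCD-RD over RD-HCD males gave 1.59 for miR-212-5p (1.12 to 2.27, adjusted p = 0.13). For miR-132-5p and miR-212-3p these ratios lay between 1.04 and 1.31, with intervals that include 1. Between HCD-HCD and HCD-RD males, which share the dam's diet, the ratios were 0.82 for miR-132-3p, 1.09 for miR-132-5p, 0.84 for miR-212-3p and 1.10 for miR-212-5p. Their intervals run from 0.53 to 1.64 between the lowest and highest bound, and no miRNA was called in that contrast (0% by the normal test, with 115 at an unadjusted p under 0.05). The 3 groups of these contrasts belong to the block of libraries whose order numbers are all different.

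The authors' deposited list for HCD-HCD against RD-HCD males names 47 miRNAs, all 2-fold or more apart. None of the 4 strands is on it, and the ratios above lie under 2 for this pair. For the 47 the ratio computed here had the sign of the authors' deposited list in 47, which selection at 2-fold in the same libraries favours, with differences from -1.07 to 0.63 and a median of -0.11 on the log2 scale, and a standard error 1.26 times as large at the median.

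With the 4 male groups read as a factorial of dam diet and offspring diet, miR-132-3p and miR-212-5p were higher with HCD dams. The factorial was added after the values above were seen and averages the same folds, so its p-values are not separate support. Averaged over the offspring's diets, HCD dams went with 1.69 times the miR-132-3p (log2 0.76, standard error 0.22, 95% interval 1.25 to 2.28, adjusted p = 0.0057 by the normal test). For miR-212-5p the ratio was 1.46 (log2 0.54, standard error 0.18, 95% interval 1.14 to 1.85, adjusted p = 0.018). So 2 of 4 strands were called, against 18.7% of 1425 miRNAs with 6.74% called higher and 11.9% lower. miR-132-5p and miR-212-3p stood at 1.10 each, with intervals of 0.83 to 1.47 and 0.84 to 1.43. This average includes HCD-RD against RD-RD, where the block of library numbers and dam diet cannot be told apart.

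The offspring's own diet gave ratios of 0.83 for miR-132-3p, 0.91 for miR-132-5p, 0.89 for miR-212-3p and 0.91 for miR-212-5p, none called, and 0% of all miRNAs were called by the normal test, with 101 at an unadjusted p under 0.05. The 95% intervals of the 4 ratios lie between 0.62 and 1.22. This average includes RD-HCD against RD-RD, where the block of library numbers and own diet cannot be told apart. The interaction of the 2 diets was not called for any strand (adjusted p from 0.64 to 0.98), with 0% called over all miRNAs by the normal test and 100 at an unadjusted p under 0.05. Its standard errors of 0.36 to 0.44 on the log2 scale leave 95% intervals that run from 0.53 to 2.49 between the lowest and highest bound. The interaction also includes RD-HCD against RD-RD, with the same limit.

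**Figure D3:**
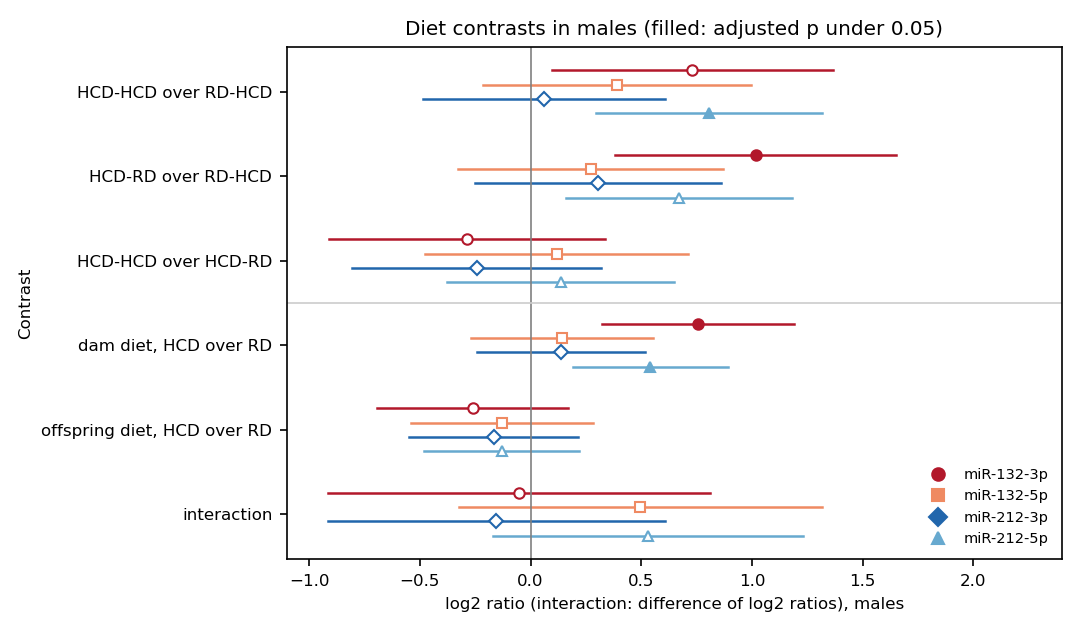
Log2 ratios between male diet groups (upper 3 rows) and effects of dam diet, offspring diet and their interaction (lower 3 rows) for the 4 strands; points are estimates, bars are 95% intervals, and filled points passed an adjusted p under 0.05. The filled points are miR-212-5p for HCD-HCD over RD-HCD (1.75), miR-132-3p for HCD-RD over RD-HCD (2.02), and both for dam diet (1.46 and 1.69).

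In females HCD-HCD and RD-HCD come from 1 table, and the ratio of the former to the latter was 1.14 for miR-132-3p, 0.89 for miR-132-5p, 0.94 for miR-212-3p and 1.22 for miR-212-5p. None was called, with adjusted p = 0.99 for each, and 0.0727% of 1375 miRNAs were called. These groups lie in different blocks of library numbers, so block and dam diet cannot be told apart here. HCD-RD females were normalised in another table and were not set against the other diet groups.

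The folds of males and females were compared for each diet, and none of the 12 differences was called. For RD-HCD the male fold crosses the blocks of library numbers and the female fold does not, so sex and block cannot be told apart there. For miR-132-3p the male minus female log2 fold was 0.33 for HCD-HCD (standard error 0.44), 0.21 for HCD-RD (0.41) and -0.21 for RD-HCD (0.45). The 12 adjusted p-values ran from 0.86 to 0.99, with 1.14%, 1.62% and 0.245% of all miRNAs called for HCD-HCD, HCD-RD and RD-HCD. For miR-132-3p in HCD-RD the interval of the difference, -0.60 to 1.02, holds both no difference and a 2-fold one, so the call in males and none in females does not show that the sexes differ.

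Of 11 other brain miRNAs described as regulated by neuronal activity, CREB or Mef2, 6 were called in each group of males from HCD dams, 5 of them downward. Calls leaned downward over all miRNAs too. In HCD-HCD males 1 of 11 rose and 5 fell, with a median log2 fold of -0.25 against -0.27 over all miRNAs and 0.06 over those with no remark, and 5.61% of all miRNAs called higher and 13.7% lower. By the authors' deposited table miR-219a-5p, which acts in oligodendrocyte differentiation and NMDA receptor signalling, stood at 0.34-fold (DESeq2 adjusted p = 3.3e-04). There miR-134-5p, which represses Limk1 in dendrites, stood at 0.46-fold and miR-138-5p, which limits the size of dendritic spines, at 0.44-fold by the authors' deposited table, at DESeq2 adjusted p of 0.0026 and 0.012. In contrast miR-329-3p, encoded like miR-134 in the Mirg cluster, stood at 2.3-fold by the authors' deposited table (adjusted p = 1.8e-05). Also called lower were miR-188-5p and miR-381-3p, each at 0.54-fold by the authors' deposited table. The rest were not called. By the authors' deposited table miR-124-3p stood at 1.44-fold, miR-184-3p at 1.32-fold, miR-379-5p at 0.95-fold, miR-485-5p at 0.9-fold and miR-137-3p at 0.84-fold.

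In HCD-RD males, where miR-132-3p was called higher, 1 of the 11 rose and 5 fell, with a median log2 fold of -0.86 against -0.25 over all miRNAs and 0.08 over those with no remark, as all 11 are. Over all miRNAs 6.38% were called higher and 12% lower. The authors' deposited table listed miR-219a-5p at 0.32-fold, miR-381-3p at 0.46-fold, miR-188-5p at 0.48-fold and miR-329-3p at 2-fold (DESeq2 adjusted p-values 9.9e-05, 0.0038, 0.0055 and 4.0e-04). Called lower too were miR-134-5p and miR-137-3p, each at 0.54-fold by the authors' deposited table. The rest were not called. By the authors' deposited table miR-124-3p stood at 1.4-fold, miR-184-3p at 1.19-fold, miR-485-5p at 1.12-fold, miR-379-5p at 0.9-fold and miR-138-5p at 0.55-fold. Of these, miR-124-3p is also on the list of neuronal miRNAs. None of the 11 was called in RD-HCD males, HCD-HCD females or RD-HCD females, and none of the 9 with a p in HCD-RD females. In these groups, in the order named, 1.47%, 0.0668%, 0% and 1.69% of all miRNAs were called. Median log2 folds of the list ran from -0.42 to -0.17 there, against -0.14, 0.06, 0.03 and -0.06 over all miRNAs in that order. The list was drawn up with results of these data known.

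**Figure D4:**
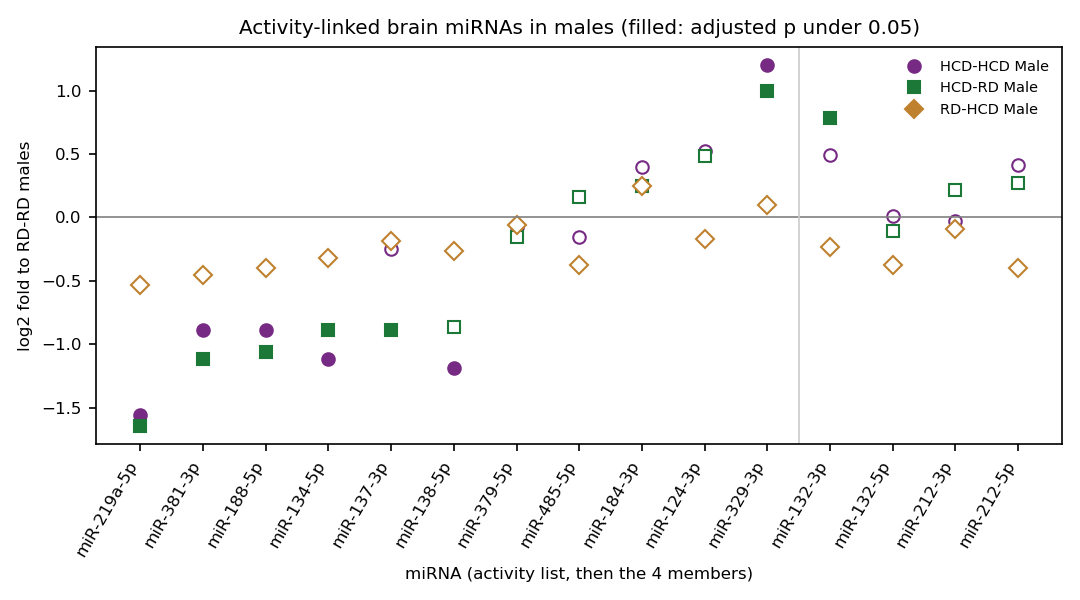
Log2 fold to RD-RD males (vertical axis) of the 11 activity-linked miRNAs and then the 4 strands (horizontal axis) in the 3 male diet groups; filled symbols passed an adjusted p under 0.05. Of the 4 strands, the filled symbol is miR-132-3p in HCD-RD males (1.72-fold), while most filled symbols of the other list lie below 0, from miR-219a-5p at 0.32-fold to miR-188-5p and others at 0.54-fold.

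The miRNAs whose 6 folds were most like those of miR-132-3p were not the strands of its own cluster. Over the 6 comparisons, which share RD-RD libraries within a sex, the root mean square difference of log2 folds was 0.19 for miR-3093-3p, 0.20 for miR-323-5p, miR-1198-3p and miR-6418-3p, and 0.21 for miR-129b-5p, against a median of 0.55 over 606 miRNAs with no remark in any comparison. miR-212-5p ranked 23 with 0.28, miR-212-3p ranked 122 with 0.39 and miR-132-5p ranked 246 with 0.49. The nearest, miR-3093-3p, was listed by the authors' deposited table at 1.43-, 1.85- and 0.87-fold for HCD-HCD, HCD-RD and RD-HCD males. For females of these diets it was listed at 1.45-, 1.47- and 1.16-fold, against 1.12-, 1.49- and 0.98-fold for miR-132-3p by the authors' deposited table. The 5 nearest were picked as the smallest of 606 values. Errors of single log2 folds of the 4 strands were 0.24 to 0.37, and whether ranks differ beyond them was not tested.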

How the data were processed

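Small RNA libraries were made with the QIAseq miRNA kit, per the labels' protocols, and the submitters' processing notes name build mm10. Not given in the sources used here are aligner, counting rule, strand handling and DESeq2 version. Per the file headers, the authors counted molecules by unique molecular identifiers, normalised with DESeq2 and deposited for each miRNA a fold, the ratio to RD-RD to 2 decimals, and the p-value DESeq2 returned. Their deposited list of HCD-HCD against RD-HCD males gives fold regulation, a score equal to the fold or minus its inverse. Males form 1 table. Of the females, HCD-RD was normalised apart from HCD-HCD and RD-HCD. The sample sheets deposited by the authors give other numbers to RD-HCD male libraries than the titles do, under the same group code, and name 43 libraries. Not analysed here were 18 of them.

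Each table holds 1721 entries, with 103 piRNAs left out. Benjamini-Hochberg adjustment ran over every miRNA with a p. The standard error of a log2 fold was found by dividing its size by the normal score that the deposited p corresponds to, where rounding moves the log2 fold by under 15%. Otherwise, for 3 of the 24 member values, it was the median of the same miRNA's other comparisons in the table. Intervals are at 95%. Contrasts used a normal test on differences of log2 folds, with the spread of 1 library taken from those errors and the numbers of libraries. They were run on simulated normal values with the spreads of HCD-HCD males, equal in all groups. That run cannot show how the test behaves where spreads differ between groups or are estimated from few libraries. A test on counts was not possible with these folds. The members and lists were chosen with earlier results of these data known, and the male factorial and 2 alternatives, adjustment without low-count miRNAs for the contrasts and centring for the factorial, were added after these values were seen. Named were the 4 members, the 5 nearest patterns and called markers. Of the activity list, up to 4 called miRNAs per comparison were named by smallest p. Its other miRNAs were named after their values were seen. Other settings tried were adjustment without low-count miRNAs, with piRNAs or by Holm, a fold of at least 1.5, an unadjusted p under 0.01, centred folds, the larger implied variance, and the largest absolute difference for patterns. Sequences came from RefSeq (GRCm38.p6) and positions from GENCODE M21. Python 3.11.15, pandas 2.3.3 and SciPy 1.17.1 were used.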

Additional observations from a re-analysis of the deposited data

How the results depend on the processing

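The count of members called in each comparison with RD-RD was the same under every other adjustment or threshold but 1: with Holm adjustment 0 members were called in HCD-RD males, where 69 miRNAs were called against 262. In HCD-HCD males the count over all miRNAs went from 275 to 177 without low-count miRNAs and to 55 with Holm. Without low-count miRNAs, counts over all miRNAs were 0 against 21 in RD-HCD males and 11 against 1 in HCD-HCD females, and for the sex difference 0 against 14 in HCD-HCD and 0 against 3 in RD-HCD. With Holm they were 7 in RD-HCD males and 7 against 22 in HCD-RD females. At an unadjusted p under 0.01 they were 51 in RD-HCD males, and 37, 73 and 4 in HCD-HCD, HCD-RD and RD-HCD females. Centring gave 34 against 18 for the sex difference in HCD-RD. In the contrasts of male groups, centring on miRNAs with no low-count remark left 0 members called for HCD-HCD over RD-HCD and 0 for HCD-RD over RD-HCD, and the larger implied variance left 0 for HCD-HCD over RD-HCD. Centring on the same miRNAs left 2 strands called for dam diet in the factorial, with adjusted p = 0.015 for miR-132-3p and 0.047 for miR-212-5p. Centring on all miRNAs with a p, whose median log2 fold was -0.27 in HCD-HCD males, put miR-132-3p there at a log2 fold of 0.76 (adjusted p = 0.04996) and miR-212-5p at 0.68 (adjusted p = 0.032), so both became calls. In HCD-RD males the call of miR-132-3p was lost with centring on miRNAs with no remark (0.70, adjusted p = 0.072) and held with centring on all (1.03, adjusted p = 0.0050). Directions reversed by centring were all of values not called: on miRNAs with no remark, miR-132-5p in HCD-HCD males (-0.042) and the log2 ratio of miR-212-3p for HCD-HCD over RD-HCD (-0.011); on all miRNAs, miR-212-3p in HCD-HCD (0.24) and RD-HCD males (0.047) and miR-132-5p in HCD-RD males (0.15). Of the 5 nearest patterns 2 were kept by the largest absolute difference. No paired analysis was possible because the tables give 1 fold per group and no value per library was used, and libraries could not be left out in turn for the same reason. Depth is unknown, so the precision rests on the spread behind each deposited p.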
